A study of Mus musculus with 16 samples.

Results

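Cytosolic ribosomal proteins make up the protein part of the ribosomes outside mitochondria, and their mRNAs were followed here in perfused mouse liver. Members were the genes whose symbol reads Rps or Rpl, a number and at most 1 further letter (a, x, l or y), together with Rplp0, Rplp1, Rplp2 and Rpsa. Each was read from the brightest, over the 16 arrays, of the probe sets that name it alone. The rule gave 46 of the 18193 genes on the array, 22 of the small and 24 of the large ribosomal subunit. Of these, 42 were bright enough to be tested, 21 of each subunit. The probe sets of Rps16, Rpl12, Rpl39l and Rpl3l lay among the dimmest 40%, which ranks probe sets and not mRNA amounts. RefSeq lists 81 protein-coding genes by the same rule, of which 45 were members, and the other member, Rps4l, is annotated as a transcribed pseudogene. The remaining 36, Rplp1 and Rpl3 included, had no probe set that names 1 gene alone, and 26 of these were reached by probe sets with several symbols.

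Each ribosome is built from a small subunit, which binds the mRNA and decodes it, and a large subunit, which joins the amino acids. The mRNAs of their proteins are abundant in liver and belong to the TOP class, whose transcripts begin with a C and a run of pyrimidines. Through this start, the kinase complex mTORC1 and the RNA-binding protein LARP1 shift them as a group between polysomes and ribosome-free particles as nutrients change. Gcn2 is a second nutrient sensor, a kinase that detects uncharged tRNA, phosphorylates eIF2 and slows initiation on most mRNAs, and the ribosomal stalk made of Rplp0, Rplp1 and Rplp2 is known to activate it.

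Livers of global Gcn2-/- mice and of Gcn2 wild-type littermates, all 3 to 6 months old, were perfused in a single pass with medium lacking methionine (-Met) or with all amino acids (+Met). The 4 conditions were Gcn2 knockout (KO) -Met, KO +Met, wild-type (WT) -Met and WT +Met. Each was measured in RNA from the polysome part of a 20% to 47% sucrose gradient, where mRNAs with several ribosomes sediment, and in unfractionated RNA of the liver supernatant loaded on it. Every array held RNA pooled from 2 livers, with 2 arrays in each of the 8 groups. The deletion is present in every cell of the animal, and the sources used here give neither the sex of the mice nor where the polysome part of the gradient began. Equal masses of RNA were labelled, so a difference between fractions is relative to the other mRNAs on an array and is not the share of copies that sedimented with polysomes.

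The annotated starts of the members were compared with those of all genes in RefSeq (GRCm38.p6), where 40 of the 46 members had a promoter entry. A C followed by at least 4 pyrimidines stood at the annotated start itself in 8 of the 40 members (20%), against 3.01% of 27025 genes. Anywhere from 10 bases before to 15 bases after the start it was found in 65% of members and in 34.4% of genes. The sequences below are shown because this start defines the class, and because these members return in the results, with Rpl41 as a member whose annotated start carries no such run. Each runs from 20 bases before the start to the 20th base of the transcript, and capitals mark the pyrimidine run that begins at the first transcribed base.
Rps6 (chr4:86857348-86857387, minus strand): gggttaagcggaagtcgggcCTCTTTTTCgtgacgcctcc
Rps10 (chr17:27635225-27635264, minus strand): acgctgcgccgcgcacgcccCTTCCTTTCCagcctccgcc
Rps18 (chr17:33955646-33955685, minus strand): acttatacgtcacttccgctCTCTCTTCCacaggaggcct
Rps27 (chr3:90213629-90213668, minus strand): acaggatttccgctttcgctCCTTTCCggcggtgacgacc
Rpl38 (chr11:114668560-114668599, plus strand): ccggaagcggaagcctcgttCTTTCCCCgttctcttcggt
Rplp2 (chr7:141447631-141447670, plus strand): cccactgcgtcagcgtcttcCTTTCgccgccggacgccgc
Rpl41 (chr10:128549149-128549188, minus strand): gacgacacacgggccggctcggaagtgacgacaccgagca
The letters CCGGAAG, the core that transcription factors of the ETS family recognise, were found on either strand in 50% of the members' windows (250 bases before to 50 after the start) and in 9.93% of all genes' windows, and these matches can overlap the pyrimidine search. TATAAA on the coding strand, 40 to 11 bases before the start, was found in 0 of the 40 members and in 2.51% of genes. These are matches of letters in annotated windows, not measured sites.

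Signals are given after median scaling, on the scale of the deposited intensities. Between replicate arrays the correlation across tested genes was 0.968 to 0.976, and the number of arrays limits the precision. The log2 shifts applied by median scaling lay between -0.29 and 0.31. After this scaling the median of all tested genes was 0.27 lower in WT -Met than in WT +Met polysome arrays, whereas it differed by 0.02 as deposited. Eif2ak4, the gene of Gcn2, had signals of 17.9 to 51.7 (median 46.0) in the 8 KO arrays and 51.3 to 115 (median 91.1) in the 8 WT arrays, so that the highest KO array lay just above the lowest WT array. The hepatocyte markers Alb (15309 to 22997) and Ttr (15299.7 to 20646) were bright in every array and Ass1 was dim (31.3 to 113). Of the red cell markers Alas2 had 777 to 2410.4 and Hba-a1 and Hbb-b2 were too dim to test, and of 6 lymphocyte markers Ptprc alone was tested.

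Ribosomal protein mRNAs stood lower in polysome than in unfractionated RNA, in both subunits and in nearly every member. By limma over all 16 arrays, 38 of 42 tested members were lower in polysome RNA and 0 higher, where 11.6% of all tested genes were lower and 9.64% higher. All genes split into 1052 higher and 1271 lower after scaling but into 1812 and 1616 as deposited, where the same 38 members were lower. The median log2 difference of the members was -0.995, against 0.00 for all genes. Of the small subunit 18 of 21 passed (median -1.08), and of the large subunit 20 of 21 (median -0.98). The 8 tested members with a pyrimidine run at the annotated start had a median of -0.96. The 28 without one had -1.04, and this difference was not tested. In 27 members all 8 polysome arrays lay below all 8 unfractionated arrays, which held for 2.03% of genes, while 0.696% of genes had the opposite order. In each of the 8 pools 32 members were lower, as were 9.1% of genes, and 5.29% of genes were higher in each. A pool here means the same-numbered polysome and unfractionated arrays of a condition, a pairing that was inferred and that the labels do not state. The p-values measure the spread between arrays of a group, each from 2 pooled livers, without the pairing of fractions by pool. Between genotypes or media, fewer cells of a type and less RNA per cell cannot be told apart in whole tissue.

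**Figure D1:**
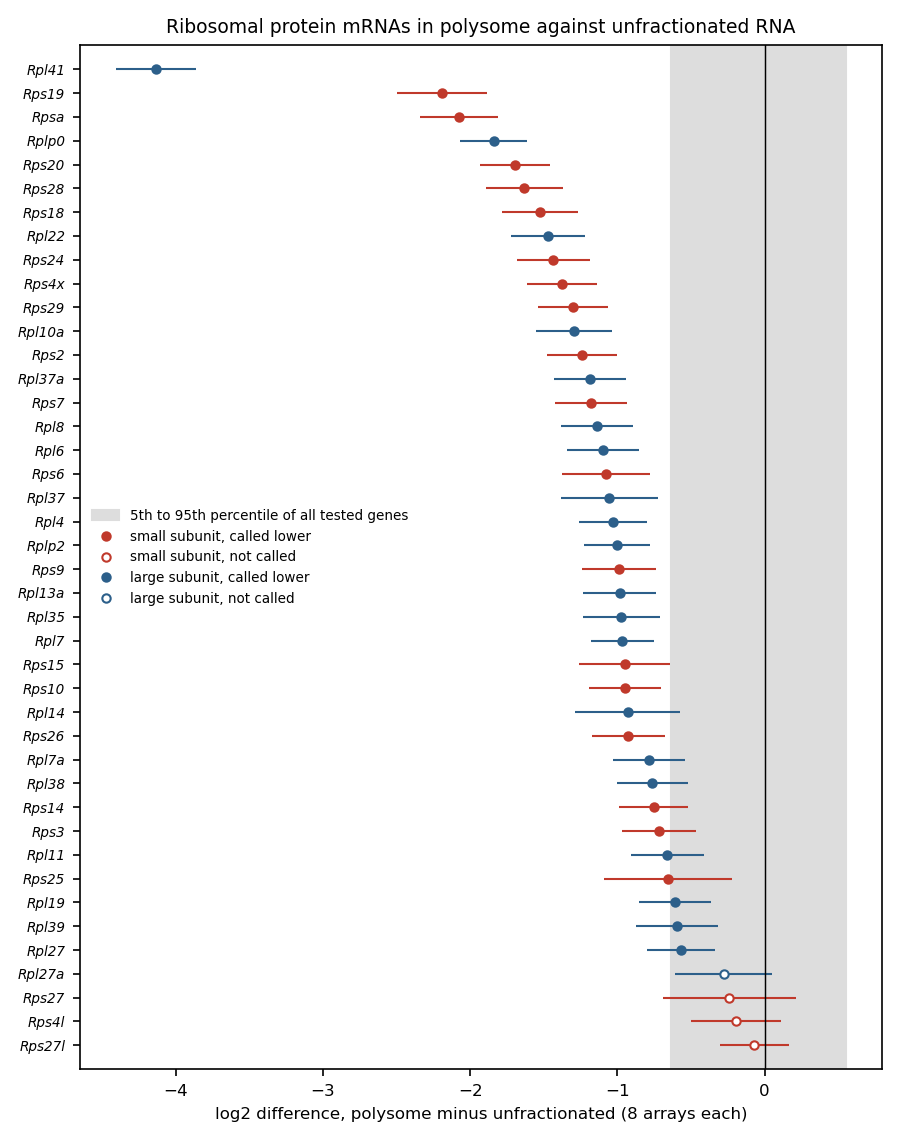
Log2 difference of polysome minus unfractionated signal (horizontal axis) for the 42 tested members, with 95% confidence intervals from limma over 8 arrays per fraction, small subunit in red and large subunit in blue, filled where called lower. The grey band spans the 5th to 95th percentile of all tested genes (-0.63 to 0.55), and all but 7 of the points lie left of it, with Rpl41 at -4.13 alone at the far end.

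Rpl41, the smallest and most basic protein of the large subunit, stood furthest down of all 10916 tested genes. Its signal was 466 to 1082 (median 625) in the 8 polysome arrays, against 8811 to 13341 (median 11122) in the 8 unfractionated arrays. The 2 ranges are far apart, and the log2 difference was -4.13 ± 0.13 (SE, adjusted p = 2.29e-15). A further bright Rpl41 probe set gave -2.53 ± 0.13, while averaging over all 4 Rpl41 probe sets, 2 of them dim, gave -1.75. Every pool showed it, between -4.69 (WT -Met, replicate 1) and -3.60 (WT +Met, replicate 2).

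In the large subunit the next lowest were the stalk base protein Rplp0, Rpl22, Rpl10a, Rpl37a and Rpl8. Rplp0 had 2486 to 3428 (median 2851) in polysome RNA, against 7869 to 11969 (median 10760.3) in unfractionated RNA, a difference of -1.84 ± 0.11 (SE, adjusted p = 1.67e-10). Its fractions did not overlap, and 7 of its 8 pools lay between -2.03 and -1.77, with KO -Met replicate 2 at -1.20. Rpl22, an RNA-binding protein with the paralog Rpl22l1, had 1252 to 4208 (median 3726) in polysome RNA and 5968 to 9872 (median 8355) in unfractionated RNA, a difference of -1.47 ± 0.12 (SE, adjusted p = 2.23e-08). Rpl10a (-1.30 ± 0.12), Rpl37a (-1.19 ± 0.12) and Rpl8 (-1.14 ± 0.12, which lies near the peptidyl transferase centre) also kept all polysome arrays below all unfractionated arrays. Rplp2, the partner of Rplp0 in the stalk, was lower by less, with 2494 to 6837 (median 5619.7) in polysome RNA and 7488 to 11157 (median 9389) in unfractionated RNA, a difference of -1.002 ± 0.11 (SE, adjusted p = 1e-06). Rpl4, a large protein that lines the exit tunnel, had 4658 to 6341 (median 5574) in polysome RNA and 9357 to 13622 (median 12119.9) in unfractionated RNA (-1.03 ± 0.11) and the smallest spread over pools of any member (SD 0.21).

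At the other end of the large subunit, the difference was -0.28 ± 0.16 (SE, adjusted p = 0.228) for Rpl27a, its single member that did not pass. Rpl27a had 216 to 571 (median 316) in polysome RNA, against 345 to 474 (median 391) in unfractionated RNA, and the ranges overlapped. Small differences that passed were those of Rpl27 (-0.57 ± 0.11), Rpl39 (-0.60 ± 0.13, a small protein of the exit tunnel), Rpl19 (-0.61 ± 0.12), Rpl11 (-0.66 ± 0.12, which binds the p53 regulator Mdm2 when ribosome assembly is disturbed) and Rpl38 (-0.76 ± 0.12, needed in mouse embryos for translation of Hox mRNAs). In each of these 5 members the arrays of the fractions overlapped. Rpl39 was lost in 1 of its 27 alternatives.

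In the small subunit Rps19 and Rpsa stood lowest. Rps19, whose human gene is mutated in Diamond-Blackfan anaemia, had 556 to 1737 (median 1116) in polysome RNA, against 3334 to 6220.0 (median 5215) in unfractionated RNA, a difference of -2.19 ± 0.15 (SE, adjusted p = 9.19e-10). Rpsa, the protein once named laminin receptor, had 1499.6 to 2122 (median 1663) in polysome RNA, against 5243 to 9057 (median 7464) in unfractionated RNA, a difference of -2.07 ± 0.13 (SE, adjusted p = 2.45e-10). For both genes the lowest unfractionated array lay above the highest polysome array. Averaged over both of its probe sets, the second of them near background, Rpsa came to -1.07. Rps20 (-1.69 ± 0.12), Rps28 (-1.63 ± 0.13), Rps18 (-1.53 ± 0.12) and Rps24 (-1.44 ± 0.12) followed, also without overlap of the fractions. Rps20, like Rps10, is known for its ubiquitination when ribosomes stall. Without probe sets that may hybridise to several transcripts, Rps20 was read from a dim probe set and came to -0.10.

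Rps6, the substrate of the S6 kinases downstream of mTORC1, had 73 to 134 (median 103) in polysome RNA, against 143 to 401 (median 267) in unfractionated RNA. Its fractions did not overlap, and the difference was -1.08 ± 0.14 (SE, adjusted p = 1.89e-05). Members with small differences that passed were Rps14 (-0.75 ± 0.11), Rps3 (-0.72 ± 0.12, at the mRNA entry channel) and Rps25 (-0.66 ± 0.21, adjusted p = 0.0283), and Rps25, at signals of 5.9 to 54.7, was lost in 8 of its 27 alternatives. Rps27, Rps4l and Rps27l did not pass.

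Related genes of the small subunit were each set against their own unfractionated signal. Rps4x, the X-linked gene of the pair, had 3003 to 4298 (median 3651) in polysome RNA and 7104 to 11273 (median 9692) in unfractionated RNA, a difference of -1.37 ± 0.11 (SE, adjusted p = 2.55e-08). Rps4l, annotated as a transcribed pseudogene, had 680.3 to 1171 (median 1008) in polysome RNA and 733 to 1605 (median 1086) in unfractionated RNA, with overlapping arrays and a difference of -0.20 ± 0.15 (SE, adjusted p = 0.379). Rps27l, the paralog of Rps27 that p53 induces, had 4113 to 7412 (median 5243) in polysome RNA and 4326 to 6693 (median 5749) in unfractionated RNA. Its difference was -0.07 ± 0.11 (SE, adjusted p = 0.718), the nearest to 0 of the tested members, its other 2 probe sets gave -0.01 and -0.09, and with quantile normalization it turned to 0.28 (adjusted p = 0.0366). Rps27 was read from a dim probe set, with 40.5 to 178 (median 91) in polysome RNA and 61.8 to 219.7 (median 105) in unfractionated RNA. Its difference was -0.24 ± 0.22 (SE, adjusted p = 0.475), and signals of different probe sets do not compare mRNA amounts. The 95% intervals were -1.61 to -1.14 for Rps4x, -0.50 to 0.11 for Rps4l, -0.31 to 0.17 for Rps27l and -0.69 to 0.21 for Rps27. Rpl39l and Rpl3l, the paralogs of Rpl39 and Rpl3, stayed at or below 32.5 in all arrays and were not tested.

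By mean signal, which ranks probe sets and not mRNA amounts, the brightest members were Rps29, Rps2, Rpl38, Rpl7a and Rps14, and the dimmest Rps16, Rpl12, Rpl39l, Rpl3l and Rps25. Rps2 had 3992 to 6998 (median 5627) in polysome RNA, against 11136 to 16003 (median 13299) in unfractionated RNA, a difference of -1.24 ± 0.11 (SE, adjusted p = 1.15e-07). Of the 35 tested members with a mean signal of 1000 or more, 33 were lower in polysome RNA (median -1.03), and of the 7 dimmer ones 5 were (median -0.66). Bright probe sets of 1 gene mostly gave like values, as the 5 bright probe sets of Rpl35 did (-0.97 to -0.91). They disagreed for Rps10, where 4 gave -1.18 to -0.95 and another -2.64 ± 0.19, and for Rps29 (-1.86, -1.75 and -1.30). Those of Rpl22 also disagreed (-2.13, -1.47 and, at a mean signal of 247, -0.67). Dim further probe sets often stood near or above 0, as in Rps24 (0.39 and -0.08), Rps10 (0.32), Rpl37a (0.24) and Rpl35 (0.06). Other dim ones were lower, such as 1 of Rps3 (-0.67) and 1 of Rpl41 (-0.52). Of the 42 tested members, 30 were read from probe sets that may bind several transcripts, and 29 of these passed (median -1.08). Of the 12 read from plain ones 9 passed (median -0.63), beside 11.6% of all tested genes lower. Most of the dimmer members were read from plain probe sets, so that probe type and brightness were not separated. Among 96 tested probe sets that hold 1 member's symbol beside others, 89 were lower in polysome RNA, with a median of -1.16.

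**Figure D2:**
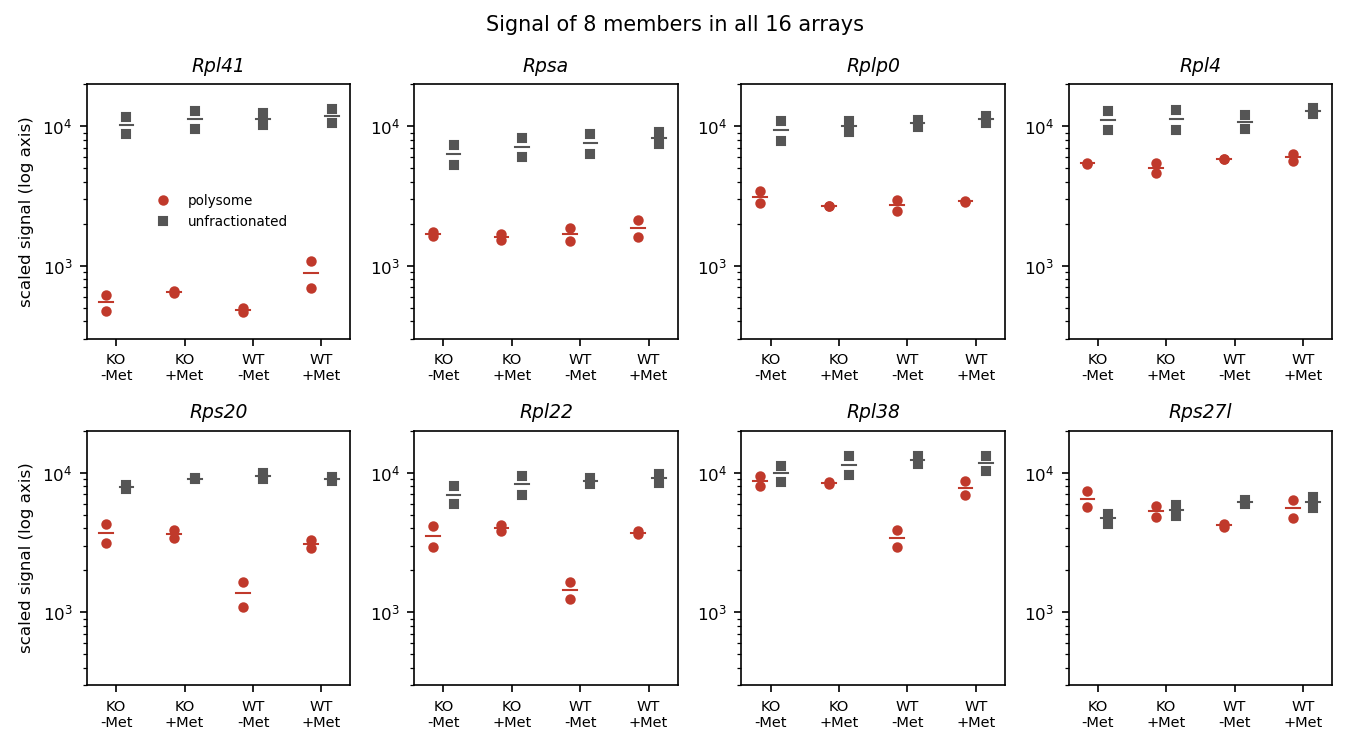
Scaled signal on a log axis for 8 members in all 16 arrays, polysome arrays in red left of unfractionated arrays in grey, short lines at the mean of each pair, conditions along the horizontal axis. Rpl41, Rpsa, Rplp0 and Rpl4 have their polysome arrays below their unfractionated arrays in all 4 conditions, Rps20, Rpl22 and Rpl38 have their lowest polysome signals in WT -Met livers, and the fractions of Rps27l overlap.

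The same comparison within each condition shows how far the members moved together. In KO -Met livers 9 of 42 members were lower in polysome RNA by limma (median -0.64), where 0.394% of all genes were lower and 0.0458% higher. In KO +Met livers 19 were lower (median -0.81, 0.944% of genes lower and 0.431% higher), in WT -Met livers 36 (median -1.69, 2.82% lower and 0.192% higher) and in WT +Met livers 23 (median -1.05, 1.4% lower and 0.944% higher). From the signals as deposited the counts were 22, 29, 37 and 34 in the same order, and every member called after scaling was called there too. Single arrays moved these counts. In KO -Met livers the count was 3 without unfractionated replicate 1, 3 without polysome replicate 1 and 5 without polysome replicate 2. In KO +Met livers it was 3 without unfractionated replicate 1, 6 without polysome replicate 1 and 4 without polysome replicate 2. In WT livers it was 23 without -Met polysome replicate 1, 5 without +Met unfractionated replicate 2 and 12 without +Met polysome replicate 2. All tested genes split into 5 higher and 43 lower in KO -Met livers after scaling but 118 and 266 as deposited, into 47 and 103 or 416 and 539 in KO +Met livers, into 21 and 308 or 147 and 319 in WT -Met livers, and into 103 and 153 or 375 and 466 in WT +Met livers.

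Called in all 4 conditions were 9 members, namely Rpl41, Rpsa, Rplp0, Rps19, Rps2, Rps4x, Rps20, Rpl4 and Rpl8, where 0.293% of all tested genes were lower in all 4. Called in none were 6, as were 96.4% of genes, namely Rpl19, Rpl27a, Rps25, Rps27, Rps27l and Rps4l. Across the 42 members the differences in KO and in WT livers ranked alike with methionine (Spearman 0.876) and less alike without it (0.548). Across media, KO -Met and WT +Met livers had 0.796, and KO +Met and WT -Met livers 0.65, so that both lower values involve WT -Met livers. This is a description over genes that share the same arrays and scaling. The pool medians of the members were -0.98 and -0.32 in KO -Met, -0.90 and -0.82 in KO +Met, -1.85 and -1.37 in WT -Met and -0.89 and -1.13 in WT +Met livers. Both WT -Met pools thus lay below the other 6, and KO -Met replicate 2 lay above all others. Medians of all tested genes, in the same order of pools, were -0.13 and 0.25, -0.08 and 0.16, -0.27 and 0.04, and 0.15 and -0.10. Over all genes too, KO -Met replicate 2 was thus the highest, and WT -Met replicate 1 was the lowest.

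**Figure D3:**
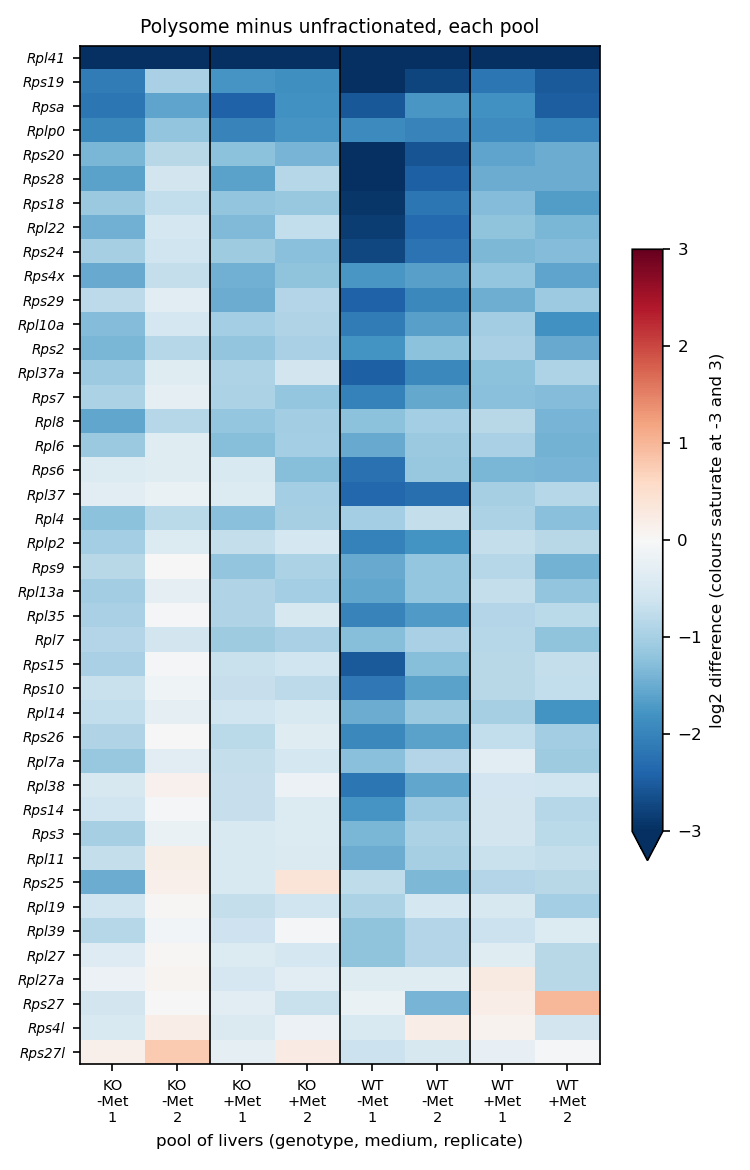
Log2 difference of polysome minus unfractionated signal for the 42 tested members (a line each, ordered from the lowest at the top) in the 8 pools, in blue where polysome signal is lower and in red where it is higher. Blue fills nearly the whole map, is darkest in both WT -Met pools, and is palest in KO -Met replicate 2, while the bottom 4 members, Rpl27a to Rps27l, have both colours.

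The values in WT -Met livers stood further from the other conditions in some members than in others, as a description. WT -Met livers against all other conditions together were not tested. The effect of methionine omission on the difference between fractions was tested, and 0 members passed. In 22 of 42 members both WT -Met pools had a lower difference than all other 6 pools, as in 11.1% of genes, and with the signals as deposited in 21 members and 8.24% of genes. The polysome signal itself was below the other 6 polysome arrays in both WT -Met arrays for 27 members, as for 15.7% of genes, and as deposited for 23 members and 9.54% of genes. In unfractionated RNA the same order was found for 0 members, beside 2.6% of genes, and as deposited also for 0, beside 4.67% of genes. For Rps20 the polysome signals were 3149 and 4299 in KO -Met, 3903 and 3385 in KO +Met, 1096 and 1641 in WT -Met and 2911 and 3294 in WT +Met livers. Its unfractionated signals were 8174 and 7716 in KO -Met, 9200.0 and 8991 in KO +Met, 9100.0 and 9988 in WT -Met and 8726 and 9327 in WT +Met livers. Both WT -Met polysome arrays were below all other polysome arrays, while in unfractionated RNA the WT -Met arrays were not low and the lowest signals were those of KO -Met livers. The difference between fractions was -1.11 in KO -Met, -1.32 in KO +Met, -2.81 in WT -Met and -1.54 in WT +Met livers.

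Rpl37, a small protein of the large subunit, had the widest gap, at -0.28 in KO -Met, -0.72 in KO +Met, -2.30 in WT -Met and -0.92 in WT +Met livers. Rpl38 stood at -0.17 in KO -Met, -0.42 in KO +Met, -1.87 in WT -Met and -0.59 in WT +Met livers. Rps28 had -1.07 in KO -Met, -1.22 in KO +Met, -2.75 in WT -Met and -1.48 in WT +Met livers. These 3 members, like Rps20, were lowest in WT -Met livers by more than 1 on the log2 scale. The gap was smaller or absent in other members. Rpl4 had -1.01 in KO -Met, -1.13 in KO +Met, -0.87 in WT -Met and -1.10 in WT +Met livers. Rpsa had -1.87 in KO -Met, -2.12 in KO +Met, -2.15 in WT -Met and -2.15 in WT +Met livers. The 4 conditions of Rpl8 lay between -1.21 and -1.10, and those of Rplp0 between -1.95 and -1.57.

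Omission of methionine asks how these mRNAs respond when 1 essential amino acid is missing. In KO livers 0 of 42 members passed by limma in polysome RNA (median 0.06, 0 at an unadjusted p under 0.05), where 0.00916% of genes were higher and 0 lower. In KO unfractionated RNA 0 passed (median -0.18, 0 at an unadjusted p under 0.05), as did 0 of all genes. WT unfractionated RNA gave 0 as well (median -0.08, or 0.05 as deposited, 0 at an unadjusted p under 0.05), beside 0.055% of genes higher, 0.0183% lower and a median of -0.13 over all genes. In WT polysome RNA 12 members fell (2.06% of genes fell and 0.174% rose), 7 of the small and 5 of the large subunit, with a median over all members of -0.67, or -0.40 relative to all genes. All tested genes there split into 19 higher and 225 lower after scaling, but into 159 and 122 with the signals as deposited. From the deposited signals 8 members fell, all among the 12, and without WT +Met polysome replicate 2 or WT -Met polysome replicate 1 the count was 0, and without WT +Met polysome replicate 1 it was 6.

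The 4 that fell furthest were Rpl22, Rps28, Rps15 and Rpl38. Rpl22 had polysome signals of 1252 and 1642 in WT -Met livers, against 3632 and 3834 in WT +Met livers, a change of -1.37 ± 0.24 (SE, adjusted p = 0.0106). Rps28 had 1423 and 1905 in WT -Met livers, against 3766 and 4168 in WT +Met livers, a log2 difference of -1.26 ± 0.25 (SE, adjusted p = 0.0145). In both genes the replicates of a medium were much closer to each other than to the other medium. Rps15, a small subunit protein near the decoding site, had 1211 and 2159.8 in WT -Met livers, against 3087 and 4852 in WT +Met livers, a log2 difference of -1.25 ± 0.30 (SE, adjusted p = 0.0331), and was not called from the deposited signals (adjusted p = 0.0756). Rpl38 had 2925 and 3895 in WT -Met livers, against 6965 and 8705 in WT +Met livers, a log2 difference of -1.20 ± 0.23 (SE, adjusted p = 0.014). The other 8 were Rplp2, Rps20, Rpl35, Rps24, Rpl37a, Rps18, Rps10 and Rps26, at -1.20 to -0.93. Among the members that did not pass, the values were -0.82 ± 0.26 (Rpl41), -0.14 ± 0.26 (Rpsa), -0.09 ± 0.22 (Rplp0), -0.04 ± 0.22 (Rpl4) and -0.04 ± 0.29 (Rps6). Relative to the median of all genes these were -0.55 for Rpl41 but 0.13, 0.18, 0.23 and 0.23 for the other 4, and as deposited they were -0.49 for Rpl41 and 0.20, 0.25, 0.30 and 0.25 for the other 4, so that their sign turned with the scaling.

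In KO polysome RNA the same genes had other values. Rpl22 had 2939.6 and 4167 in KO -Met livers and 3819.8 and 4208 in KO +Met livers (-0.20 ± 0.24). Rpl38 had 8092 and 9533 in KO -Met livers and 8290.2 and 8624 in KO +Met livers (0.05 ± 0.23), so that the pairs of arrays overlapped. None of the smallest p-values in the other comparisons passed. In KO polysome RNA these were Rps29 (0.41 ± 0.23) and Rpl14 (0.51 ± 0.35) upward, and Rplp2 (-0.34 ± 0.22) and Rps25 (-0.57 ± 0.42) downward. In KO unfractionated RNA they were Rpl14 (0.48 ± 0.35) and Rps25 (0.06 ± 0.42) upward, and Rps9 (-0.33 ± 0.24) and Rps28 (-0.32 ± 0.25) downward. In WT unfractionated RNA they were Rps27 (0.72 ± 0.43) and Rps6 (0.26 ± 0.29) upward, and Rpl14 (-0.43 ± 0.35) and Rpl4 (-0.27 ± 0.22) downward. Rps25, Rps27 and Rpl14 among them were read from dim probe sets.

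Whether the response to methionine omission differed between genotypes was tested as a difference of differences, KO minus WT. For polysome RNA 0 members passed by limma (0.0366% of genes were higher and 0 lower) and 20 had an unadjusted p under 0.05, with a median of 0.72, or 0.49 relative to all genes. The smallest p-values were those of Rpl38 (1.26 ± 0.33, adjusted p = 0.277) and Rps24 (1.27 ± 0.34, adjusted p = 0.277). In unfractionated RNA 0 passed (0.0275% of genes were higher and 0 lower), 0 had an unadjusted p under 0.05, and the median was -0.07. The effect on the difference between fractions (polysome minus unfractionated, -Met minus +Met) was called in 0 members and 0 of all genes. Its median was 0.21 in KO livers (0 at an unadjusted p under 0.05) and -0.50 in WT livers (16 at an unadjusted p under 0.05), and its difference between genotypes had a median of 0.77 (15 at an unadjusted p under 0.05). Relative to all genes these medians were 0.19 in KO livers, -0.34 in WT livers and 0.60 for the difference, and as deposited they were 0.18, -0.29 and 0.56 in the same order. The lowest values in WT livers were those of Rps27 (-1.39), Rpl37 and Rpl22, and the smallest p-values were those of Rps20 (-1.28 ± 0.33, adjusted p = 0.786) and Rpl38 (-1.29 ± 0.33, adjusted p = 0.786).

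**Figure D4:**
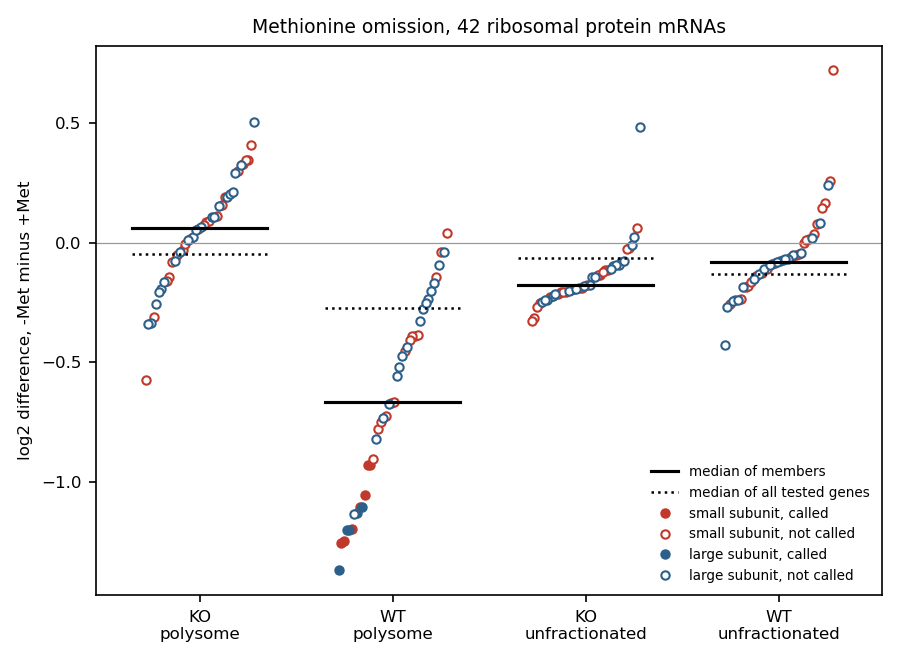
Log2 change on methionine omission (-Met minus +Met) of the 42 tested members in KO and WT polysome and KO and WT unfractionated RNA, small subunit in red and large subunit in blue, filled where called, solid line for the median of members and dotted line for that of all tested genes. Filled points occur in WT polysome RNA alone, where the members' median is -0.67 and that of all genes -0.27, while the other 3 medians of members lie between -0.18 and 0.06.

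Loss of Gcn2 was compared within each fraction over both media. In unfractionated RNA 0 of 42 members passed by limma, where 0.22% of genes were higher and 0.513% lower. Of the members 2 had an unadjusted p under 0.05, and the median was -0.14, or -0.03 relative to all genes. All genes split into 24 higher and 56 lower after scaling, but into 58 and 58 as deposited. Summed Kupffer cell markers in the same arrays were 1404 to 2164 in KO and 2938 to 3038 in WT livers, and their part in these values was not tested. Rps6 came nearest, with 179 and 158 in KO -Met and 143 and 242 in KO +Met livers, against 401 and 312 in WT -Met and 292 and 296 in WT +Met livers. All 4 KO arrays were below all 4 WT arrays, and the difference was -0.81 ± 0.20 (SE, adjusted p = 0.0679). Rps6 passed with a pseudocount of 64, with the replicate number as a block and without KO +Met unfractionated replicate 2. It is among the tested members with a mean signal under 1000, at 180 over the 16 arrays. Rps4l had the other p under 0.05 (0.45 ± 0.21).

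In polysome RNA 10 members were higher in KO livers and 0 lower, where 0.889% of genes were higher and 0.577% lower, 6 of the small and 4 of the large subunit. The median of the members was 0.38, or 0.40 relative to all genes. Rpl37 led with 309 and 509 in KO -Met and 348 and 343 in KO +Met livers, against 95.1 and 143 in WT -Met and 224 and 339.9 in WT +Met livers, a log2 difference of 0.97 ± 0.22 (SE, adjusted p = 0.0304). Rps18 had 4406 and 4201 in KO -Met and 5095 and 3797 in KO +Met livers, against 1363 and 1940.0 in WT -Met and 3693 and 3132 in WT +Met livers, a log2 difference of 0.88 ± 0.17 (SE, adjusted p = 0.0101). The WT -Met arrays were the low ones in both genes. For Rps18 all 4 KO arrays lay above all 4 WT arrays, and for Rpl37 WT +Met replicate 2 lay among the KO arrays. Rps20 (0.84 ± 0.16), Rps24 (0.82 ± 0.17), Rpl37a (0.77 ± 0.17), Rps29 (0.76 ± 0.16), Rpl38 (0.75 ± 0.16), Rps28 (0.74 ± 0.18), Rpl22 (0.69 ± 0.17) and Rps10 (0.67 ± 0.17) were also higher.

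The count differed between the media. Between KO -Met and WT -Met polysome arrays alone 18 members were higher (median 0.74), where 2.53% of genes were higher and 0.321% lower. Between KO +Met and WT +Met polysome arrays 0 passed (median 0.09, 1 at an unadjusted p under 0.05), where 0.101% of genes were higher and 0.174% lower, and without both WT -Met polysome arrays 0 passed. This comparison shares the WT -Met polysome arrays with the methionine comparison in WT livers, and their values stand side by side without further inference. The count was 0 without WT -Met polysome replicate 1, 2 without WT +Met polysome replicate 1, 1 without KO -Met polysome replicate 2, 2 without KO +Met polysome replicate 1 and 3 without KO +Met polysome replicate 2. From the signals as deposited 19 members were higher, the 10 among them. All genes split into 97 higher and 63 lower after scaling, but into 286 and 207 as deposited. The KO minus WT difference in polysome minus unfractionated was called in 0 members and 0 of all genes, with 23 members at an unadjusted p under 0.05 and a median of 0.60, or 0.53 relative to all genes. The 9 tested Kupffer cell markers had a median of 0.57 in this comparison, or 0.49 relative to all genes (9 of 9 positive, 0 called, 3 at an unadjusted p under 0.05), and their part in it was not tested. Rps20 (0.96 ± 0.23) and Rpl38 (0.93 ± 0.23) had the smallest p-values there (adjusted p = 0.345 each), and Rps27 had the lowest value (-0.28 ± 0.43).

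Other gene lists were set beside the members in the comparison of fractions, where 9.64% of all tested genes were higher and 11.6% lower. Elongation factors and other TOP mRNAs were lower in polysome RNA for 15 of 16 genes (median -0.96). Among them Pabpc1, which binds the poly(A) tail, came to -2.06 ± 0.14, Eef1b2, an exchange factor of elongation, to -1.87 ± 0.12 and Npm1, a nucleolar chaperone, to -1.39 ± 0.14. Btf3 did not pass (-0.15 ± 0.16). Ribosome genes that the symbol rule leaves out were lower for Rps3a1 (-1.42 ± 0.13), Rpl22l1 (-1.20 ± 0.14) and Fau (-0.58 ± 0.13), whereas Rpl7l1 (0.32 ± 0.14) and Rps19bp1 (0.41 ± 0.17) did not pass. Mitochondrial ribosomal proteins, which build the separate ribosomes of mitochondria, had 10 members higher and 3 lower of 76 (median 0.12), with Mrpl10 at 0.57 ± 0.14 and Mrps31 at -0.96 ± 0.16. Secreted plasma proteins, translated on the endoplasmic reticulum, had 10 of 23 lower and 0 higher (median -0.28), with Kng1 at -0.79 ± 0.13.

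In WT -Met livers the median of the ribosomal proteins was -1.69, that of the other TOP mRNAs -1.05, that of secreted proteins -0.24 and that of mitochondrial ribosomal proteins -0.10, beside -0.12 for all genes. Relative to all genes these were -1.57, -0.93, -0.13 and 0.019 in the same order. With methionine, WT livers had medians of -1.05 for both ribosomal proteins and other TOP mRNAs. Of the 16 other TOP mRNAs 0 passed on methionine omission in WT polysome RNA (median -0.40, or -0.13 relative to all genes), against 12 of 42 members, and the difference between the lists was not tested. Markers of other cells moved with the fraction too. All 11 Kupffer cell markers were on the array, and Marco and Timd4 were too dim to test. Of the 9 tested, 8 were lower in polysome RNA over all arrays (median -0.78), beside 11.6% of all tested genes. The summed signal of the 11 was 855 to 1633 in polysome and 1404 to 3038 in unfractionated arrays. Summed erythroid markers had 824 to 1334 in polysome and 1312 to 2447 in unfractionated arrays, almost all of it Alas2, and the 18S control probe set had 2.38 to 93.7 in polysome and 80.2 to 249 in unfractionated arrays. Hepatocyte markers summed to 83519 to 98033 in polysome and 86545 to 120512 in unfractionated arrays. The part of these in the members' difference was not tested.

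**Figure D5:**
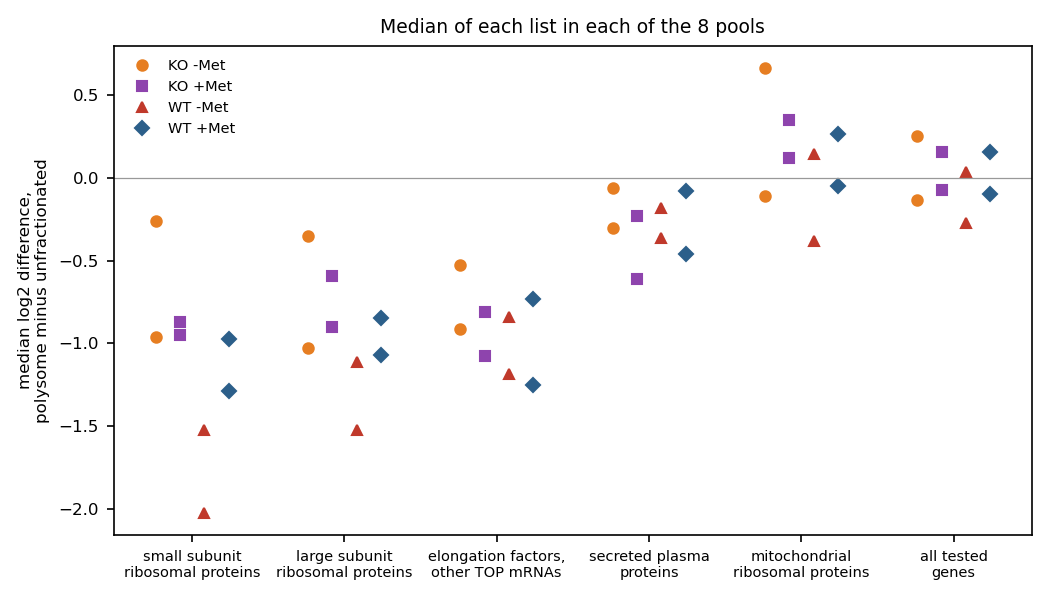
Median log2 difference of polysome minus unfractionated signal (vertical axis) of each list in the 8 pools, coloured by condition. In each pool both subunits and the other TOP mRNAs lie below all tested genes, secreted plasma proteins lie between -0.61 and -0.06, and the WT -Met pools are the lowest for the small and the large ribosomal subunit.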

How the data were processed

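The deposited values are linear intensities, 1 signal per probe set and array, which the authors had scaled so that every array has a trimmed mean (2% from each end) of 150.0, as the values themselves show. No source used here names the algorithm behind the signals. Of 45101 probe sets, 34945 named 1 gene, 932 several and 9211 none (51 controls among the last), 13 further controls that carry a symbol were left out, and genes were named from the platform annotation. Each array was scaled to a common median (array medians 18.3 to 27.7), and the brightest probe set that names 1 gene alone stood for that gene. Then log2(signal + 16) was taken, which understates the change of dim genes. The dimmest 40% of 18193 genes were left out, so that 10916 were tested. A model of 8 groups was fitted with limma 3.58.1 (R 4.3.3; 8 residual degrees of freedom, trended prior), with Benjamini-Hochberg adjustment over all tested genes in each of 17 comparisons and a threshold of 0.05. A log2 difference is on the log2(signal + 16) scale, and the methods were tested on simulated data. Tables and figures used Python 3.11.15, pandas 2.3.3, numpy 2.4.6 and matplotlib 3.10.9. Promoter windows come from RefSeq (GRCm38.p6).

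The members and gene lists were chosen with earlier results of these data known. Described singly were the 6 lowest and 6 highest members of each subunit between fractions. In other comparisons these were all called members (the 4 largest changes in each direction where over 8 were called) or, with none called, the 2 smallest p-values in each direction. A fixed set of members and paralogs and the 5 brightest and 5 dimmest members were added. Replicate numbers come from the labels. Same-numbered polysome and unfractionated arrays of a condition deviated together (correlations 0.171 to 0.321), so these were taken to share a pool. The labels do not state this, and same-numbered arrays of unlike medium and fraction reached 0.149. The members' median of replicate 2 minus replicate 1 differed in sign between polysome and unfractionated RNA in KO -Met (0.31 and -0.39) and WT -Met livers (0.23 and -0.18). It had the same sign in KO +Met (-0.18 and -0.38) and WT +Met livers (0.01 and 0.22). Same-numbered arrays of different media had correlations of -0.025 to 0.260, over 0.1 in 1 pair of groups, and were not taken as paired. Alternatives varied the scaling, pseudocount, filter, probe set, arrays and replicate block. The authors' z scores hold no replicate error and were not used here.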

Additional observations from a re-analysis of the deposited data

How the results depend on the processing

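The lower polysome signal of the members over all arrays held in 37 to 38 members when any 1 array was left out, and in 11 of 15 tested with plain probe sets alone. With quantile normalization 1 member, Rps27l, was higher instead (0.28). Counts within a condition depended more on the settings. In KO -Met livers 22 members were lower as deposited, 17 with quantile normalization, 19 when centred on tested genes, 4 without the filter on dim genes, 4 with the mean of probe sets and 2 with plain probe sets. Over all genes there 43 were lower after median scaling, but 266 as deposited, 261 with quantile normalization and 252 when centred. Higher were 5, 118, 172 and 78 genes in the same order. In KO +Met livers the counts of members were 29 as deposited, 6 without the filter, 12 with the mean of probe sets and 2 with plain probe sets. Plain probe sets gave 7 in WT -Met and 5 in WT +Met livers. Leaving out 1 array gave 3 to 11 in KO -Met, 3 to 20 in KO +Met, 23 to 36 in WT -Met and 5 to 26 in WT +Met livers. Counts over all genes in the filter, probe set and single-array settings are not given here.

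The fall on methionine omission in WT polysome RNA was called in 7 members when centred, 6 without the filter, 4 with the mean of probe sets, 2 with plain probe sets, and 0 to 14 when 1 array was left out (6 without WT +Met polysome replicate 1). All 10916 tested genes split there into 119 higher and 94 lower when centred, but into 19 and 225 after median scaling. Higher polysome signal in KO than in WT livers was called in 19 members as deposited, 21 with quantile normalization, 19 when centred, 3 without the filter, 2 with the mean of probe sets and 0 with plain probe sets, where Rps20 turned to -0.052. It was called in 0 without both WT -Met polysome arrays, and in 0 to 12 when 1 array was left out. All genes there split into 286 higher and 207 lower as deposited, 342 and 257 with quantile normalization, and 268 and 148 when centred. Comparing one medium at a time, chosen after seeing the data, gave 18 without and 0 with methionine. Lower unfractionated signal in KO livers was called in 1 member (Rps6) with a pseudocount of 64 and in 0 to 1 when 1 array was left out. The causes were not tested, except that plain probe sets left fewer members to test.

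With the pool as a fixed or random replicate block, 38 and 38 members were lower in polysome RNA over all arrays, 13 and 10 in KO -Met, 23 and 20 in KO +Met, 37 and 36 in WT -Met and 31 and 26 in WT +Met livers. With the replicate number as a block, the fall on methionine omission was called in 15 members, higher polysome signal in KO livers in 13 and lower unfractionated signal in 1. The block moved no other count by over 1.5 times. Over all single members, 6037 values kept direction and side of the threshold, 110 lost a call, 28 gained it and 2 reversed. Signal near background limits Rps25, Rps27, Rpl14 and the 4 untested members.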
